A study of Mus musculus with 8 samples.

Results

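Embryonic cardiomyocytes (CMs) were compared directly with hypertrophic adult cardiomyocytes (ACMs), the fetal and the stressed adult state of the same muscle cell. Every gene was taken whose probe stood above background (a detection p-value under 0.05, set against the array's negative controls) on 2 or more of the 5 arrays. This gave 9393 of the 16593 genes named on the array. The embryonic CMs came from ventricles of CD1 background mice at E15.5, late in gestation (2 arrays, control disease state). The hypertrophic ACMs came from ventricles of adult CD1 mice with hypertrophic hearts, 7 days after an operation that the labels name only as TAC (3 arrays). Normal ACMs, from adult ventricles of CD1 background mice with control disease state and no operation named (3 arrays), are given beside the comparison as the level of the adult heart. All samples were primary, CM-enriched cell preparations from which total RNA was hybridised, 1 sample per array. Stage, operation, strain label and cell preparation differ together between the embryonic and hypertrophic groups and cannot be told apart. Whether replicates are separate animals is not given in the sources used here, and a p-value then measures only how far these samples spread, which can be technical.

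The fetal heart grows by division of its CMs, depends largely on glucose and lactate, and builds its sarcomeres with isoforms that the adult heart replaces. After birth CMs leave the cell cycle, switch to fatty acids as fuel and express adult contractile isoforms, channels and calcium-handling proteins. Pressure load makes adult CMs larger and is known for the return of some fetal transcripts, such as those of natriuretic peptides and β-myosin heavy chain, together with deposition of matrix by neighbouring fibroblasts. The comparison asks which fetal genes hypertrophy did not bring back, and which genes were higher in hypertrophy than in the fetus.

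Levels are normalized log2 intensities, and a difference is embryonic minus hypertrophic, so that a negative value means a higher level in hypertrophic ACMs. Values after ± are standard errors of a limma fit, and a gene passed at an adjusted p under 0.05. Levels of different probes are not set against each other. The array correlations were 0.99 between the 2 embryonic arrays, at least 0.982 among the hypertrophic arrays and at most 0.878 between an embryonic array and an array of another group. Probes above background made up 51.6% on the embryonic arrays, 45.84 to 46.33% on the hypertrophic arrays and 41.9 to 43.95% on the normal arrays. Of 18 CM defining genes, 17 were above background on all 5 arrays. Their summed linear intensity was 210100 to 226700 in embryonic CMs, 290300 to 303800 in hypertrophic ACMs and 267700 to 281300 in normal ACMs. The array of normal replicate 2 stood apart in interferon and antigen presentation genes. Each array carries RNA of many cells, so fewer cells of a type and less RNA per cell cannot be told apart.

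Of the 9393 genes, 2366 (25.2%) were higher in embryonic CMs and 1963 (20.9%) were higher in hypertrophic ACMs, so that 46.1% passed in either direction. Each list count below, unless given for another setting, is to be read beside these shares of all genes. More than 2-fold differences were found for 1415 and 1183 of them, and differences over 16-fold for 62 and 42. The levels of the 2 groups of arrays did not overlap in 67.7% of all genes tested. The median difference over all genes was 0.0331. When arrays were scaled to the same median in place of quantile normalization, that median moved to 0.538 and the calls to 4351 higher in embryonic CMs and 1022 higher in hypertrophic ACMs. Of the called genes 263 changed sign under that scaling, none of them with a call in the opposite direction. List counts under median scaling are to be read beside the 4351 and 1022 of all 9393 genes, not beside 25.2% and 20.9%. For called genes described here, a call that this scaling ended or a sign that it turned is given beside the value. Among the described genes that did not pass, it turned the sign of Bub3, Eno2, Gata4, Hspb1, Ldha, Loxl1, Lum, Myl3, Nppa, Pfkp, Slc38a4 and Tbx5, so their signed values give no direction. Genes that did not pass could also gain a call under that scaling. Nes, Actn1, Cnn2, Plod2, Cox7a2 and Dab2 did so towards embryonic CMs, and Csrp3 and Runx1 towards hypertrophic ACMs.

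**Figure D1:**
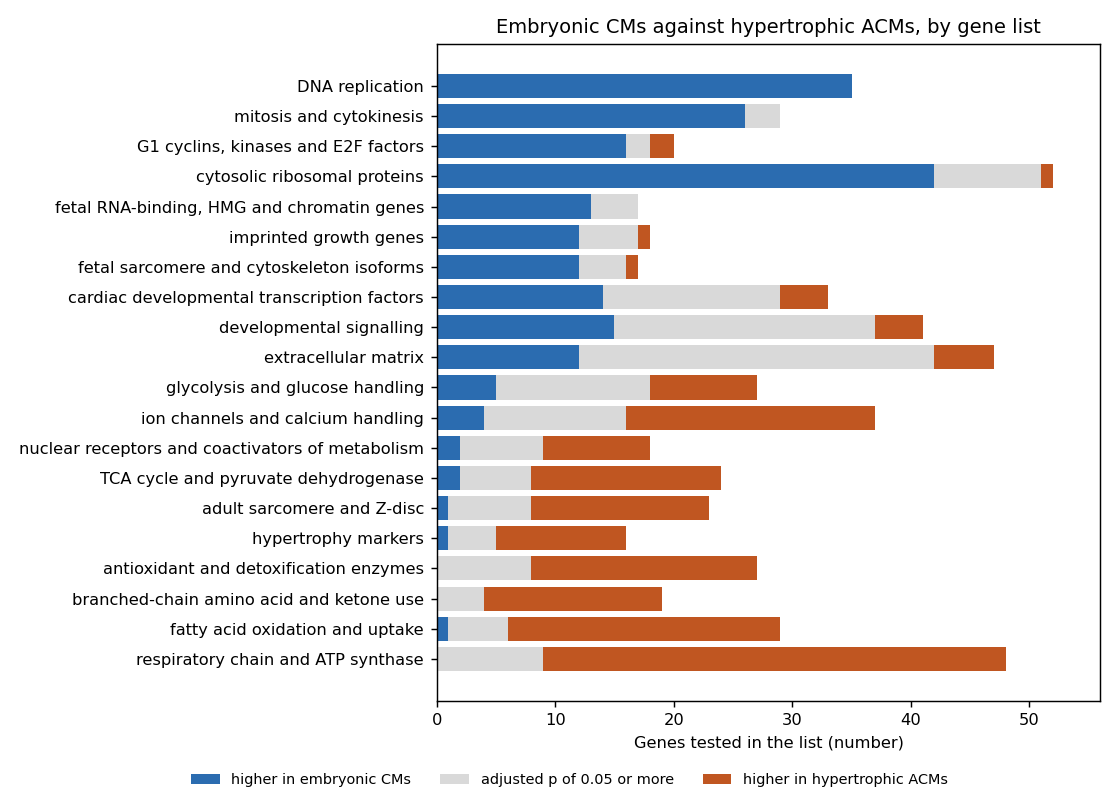
Stacked bars give the number of genes tested in each of 20 gene lists that were higher in embryonic CMs (blue), did not pass (grey) or were higher in hypertrophic ACMs (orange). DNA replication is blue throughout (35 of 35), and respiratory chain genes are orange in 39 of 48.

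Cell cycle genes were higher in the fetus than in hypertrophy. Each of the 35 DNA replication genes tested, of 44 listed, was higher in embryonic CMs, with a median difference of 2.12, or 2.09 with genes below background at their bound. So were 26 of 29 mitosis and cytokinesis genes (45 listed, median 3.39) and 16 of 20 G1 cyclins, kinases and E2F factors (26 listed, median 1.38), beside 25.2% of all genes. Median scaling kept the direction, with 35, 27 and 18 higher in embryonic CMs. Of the genes tested, 8, 12 and 6 passed the background filter through the embryonic arrays alone, a route that favours higher embryonic levels. In hypertrophic against normal ACMs, a comparison that shares the hypertrophic arrays, 2, 5 and 1 members of these lists were higher in hypertrophy, beside 4.11% of all genes, and none was lower (1.9% of all genes).

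Transcription of these genes in cycling cells is known to be timed through the promoter. E2F factors act at genes of the G1/S transition, while many genes of the G2/M transition carry a cell cycle genes homology region (CHR) next to CCAAT boxes. RefSeq promoters (GRCm38.p6, 250 bases before to 50 after the start) were matched for 30 of the 35 replication genes (36 promoters) and 24 of the 29 mitosis genes (26 promoters). The CHR letters TTTGAA, searched on both strands, were present in 22 of the 26 mitosis promoters (84.6%), beside 17.9% of all 32851 promoters in the table and 11.8% of the 9825 promoters of the genes tested. CCAAT, on either strand, was present in 19 of 26 (73.1%), beside 37.4% of all promoters. An E2F sequence (TTTGGCGC, TTTCGCGC or TTTCCCGC, on either strand) was present in 10 of the 36 replication promoters (27.8%), beside 1.84% of all promoters and 3.2% of those of the genes tested, and in 1 of the 26 mitosis promoters (3.85%). In replication promoters TTTGAA was found in 5 of 36 (13.9%) and CCAAT in 20 (55.6%). These matches describe letters in the window and not factor binding.

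The promoters of Cdc20, Plk1, Cdca8 and Aurka are shown because these mitotic regulators were among the genes with large differences and hold both elements. TTTGAA and CCAAT, or their complements TTCAAA and ATTGG, are in capitals. Cdc20 (activator of the anaphase-promoting complex) lies at chr4:118437294-118437593 (- strand), Plk1 (polo-like kinase 1) at chr7:122159185-122159484 (+ strand), Cdca8 (borealin of the chromosomal passenger complex) at chr4:124936868-124937167 (- strand) and Aurka (Aurora kinase A) at chr2:172370521-172370820 (- strand). All but Cdca8 were chosen after their values were seen.
Cdc20: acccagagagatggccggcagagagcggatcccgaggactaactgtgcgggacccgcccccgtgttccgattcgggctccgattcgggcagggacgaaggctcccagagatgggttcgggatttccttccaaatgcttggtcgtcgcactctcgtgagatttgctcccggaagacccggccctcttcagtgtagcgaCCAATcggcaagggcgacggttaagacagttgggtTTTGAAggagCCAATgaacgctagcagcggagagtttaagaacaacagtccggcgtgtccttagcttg
Plk1: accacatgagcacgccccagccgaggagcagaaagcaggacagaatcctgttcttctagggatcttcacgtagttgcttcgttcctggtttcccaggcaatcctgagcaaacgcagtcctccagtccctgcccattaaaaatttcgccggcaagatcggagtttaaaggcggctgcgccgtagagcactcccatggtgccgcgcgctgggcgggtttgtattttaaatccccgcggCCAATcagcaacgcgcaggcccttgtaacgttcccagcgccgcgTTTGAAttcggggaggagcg
Cdca8: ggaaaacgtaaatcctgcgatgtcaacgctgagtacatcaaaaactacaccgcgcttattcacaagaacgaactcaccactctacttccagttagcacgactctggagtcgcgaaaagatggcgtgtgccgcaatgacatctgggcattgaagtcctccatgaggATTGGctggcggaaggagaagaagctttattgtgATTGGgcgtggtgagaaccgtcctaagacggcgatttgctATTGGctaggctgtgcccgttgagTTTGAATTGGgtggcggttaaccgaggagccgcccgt
Aurka: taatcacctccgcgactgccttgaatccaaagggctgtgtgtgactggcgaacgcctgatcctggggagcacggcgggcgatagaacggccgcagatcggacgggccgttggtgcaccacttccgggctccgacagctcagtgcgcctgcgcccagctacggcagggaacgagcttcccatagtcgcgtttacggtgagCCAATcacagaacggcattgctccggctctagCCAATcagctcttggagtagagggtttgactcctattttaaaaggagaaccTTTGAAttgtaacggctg
The promoters of Mcm5 and Mcm6, subunits of the replicative helicase, are shown with the E2F sequences or their complements in capitals. Mcm5 lies at chr8:75109259-75109558 (+ strand) and Mcm6 at chr1:128359656-128359955 (- strand), and both were chosen after their values were seen. Their matches sit as overlapping pairs, with a further match in Mcm6.
Mcm5: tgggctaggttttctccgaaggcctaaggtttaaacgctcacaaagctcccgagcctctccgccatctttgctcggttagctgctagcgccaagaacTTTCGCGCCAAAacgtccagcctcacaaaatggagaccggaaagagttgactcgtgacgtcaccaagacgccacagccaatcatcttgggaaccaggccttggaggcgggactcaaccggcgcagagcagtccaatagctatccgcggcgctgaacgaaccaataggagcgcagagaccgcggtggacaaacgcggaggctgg
Mcm6: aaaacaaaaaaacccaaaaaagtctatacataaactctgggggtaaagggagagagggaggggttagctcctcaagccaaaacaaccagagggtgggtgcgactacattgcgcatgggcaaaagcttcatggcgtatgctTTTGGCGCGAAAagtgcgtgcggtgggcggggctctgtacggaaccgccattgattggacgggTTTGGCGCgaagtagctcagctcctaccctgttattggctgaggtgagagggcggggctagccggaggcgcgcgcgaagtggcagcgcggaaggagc

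The genes of these promoters differed strongly on the arrays. Cdc20 stood at 10.47 and 10.73 on the embryonic arrays and 5.31, 5.84 and 5.74 on the hypertrophic arrays, a difference of 4.97 ± 0.30 (limma adjusted p = 3.4e-06), and at 4.28, 5.31 and 4.89 on the normal arrays. Aurka stood at 9.77 and 9.55 in embryonic CMs against 5.34, 5.68 and 4.80 in hypertrophic ACMs (difference 4.39 ± 0.25, limma adjusted p = 2.6e-06). Plk1 gave 9.30 and 8.84 against 4.91, 5.56 and 4.90 (difference 3.95 ± 0.29, limma adjusted p = 9.7e-06). In all 3 genes each embryonic array was far above every hypertrophic array, and hypertrophic replicate 2 was the highest of its group. Cdca8 was above background on 1 hypertrophic array, with 8.85 and 8.54 in embryonic CMs and 4.52, 4.97 and 4.34 in hypertrophic ACMs (difference 4.09 ± 0.23, limma adjusted p = 2.4e-06). Mcm5 levels were 10.27 and 10.28 in embryonic CMs against 5.85, 6.24 and 6.15 in hypertrophic ACMs (difference 4.19 ± 0.35, limma adjusted p = 2.4e-05), and Mcm6 levels were 10.09 and 10.20 in embryonic CMs against 5.01, 6.08 and 5.80 in hypertrophic ACMs (difference 4.51 ± 0.38, limma adjusted p = 2.3e-05).

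The genes with the smallest p in the replication list act at different steps of DNA synthesis. Licensing factor Cdt1 was 14.1-fold higher in embryonic CMs (limma adjusted p = 2.7e-06), DNA ligase Lig1 13-fold (limma adjusted p = 2.5e-06) and the chromatin assembly subunit Chaf1a 6.50-fold (limma adjusted p = 2.4e-06). Mcm10, which helps to load the helicase, was below background on every hypertrophic array, and embryonic CMs exceeded it at least 10.4-fold (limma adjusted p = 9.9e-07). Its levels were 7.94 and 8.27 against 4.31, 4.58 and 4.50. The smallest differences of the list were those of Gins4 and Rfc1, named after their values were seen, at 0.58 ± 0.18 and 0.58 ± 0.21 (limma adjusted p = 0.029 and 0.043).

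Among mitosis genes, Birc5 (survivin), also of the passenger complex, stood at 10.61 and 10.77 in embryonic CMs, 5.65, 6.12 and 6.06 in hypertrophic ACMs and 4.98, 4.78 and 4.61 in normal ACMs. The embryonic difference was 4.75 ± 0.20 (limma adjusted p = 6.4e-07), and hypertrophic ACMs were above normal ACMs by 1.15 (limma adjusted p = 0.0083). The 3 groups did not overlap. Cdca3, a mitotic entry factor, and the chromosome-arm kinesin Kif22 followed the same order, at differences of 4.35 ± 0.24 and 3.75 ± 0.21 (limma adjusted p = 2.4e-06 and 2.3e-06). Hypertrophic ACMs exceeded normal ACMs by 0.99 in Cdca3 (limma adjusted p = 0.032) and at least 1.75-fold in Kif22, which was below background on every normal array (limma adjusted p = 0.02). Anillin (Anln), a cytokinesis scaffold, was 28-fold higher in embryonic CMs (limma adjusted p = 8.5e-06), and its hypertrophic minus normal difference of 0.82 did not pass (limma adjusted p = 0.16). Bub3, Ube2c and Spc24 were the 3 members that did not pass, with differences of -0.17, 0.40 and 0.51, and were named after their values were seen.

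Of the G1 list, E2f1, the activator E2F, stood at 9.76 and 9.65 on the embryonic and 5.26, 5.60 and 5.11 on the hypertrophic arrays (difference 4.39 ± 0.18, limma adjusted p = 6.3e-07). E2f2 was above background on no hypertrophic or normal array, with embryonic CMs at least 6.42-fold higher (limma adjusted p = 2.6e-06). Cdk2, the S phase kinase, and Ccnd3 (cyclin D3) were 6.81-fold and 5.33-fold higher in embryonic CMs (limma adjusted p = 6.4e-06 and 4.2e-06). Tfdp2, a dimerization partner of E2F, and E2f6, an E2F repressor, went the other way, with differences of -1.86 ± 0.34 and -0.54 ± 0.18 (limma adjusted p = 0.0018 and 0.04). The E2f6 call was lost in 12 of 22 alternative settings, median scaling among them.

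Cell cycle inhibitors and exit genes did not stand apart from all genes in these counts. Of 17, 4 were higher in embryonic CMs and 2 in hypertrophic ACMs (median 0.38), beside 25.2% and 20.9% of all genes. Median scaling gave 9 and 2. Of the 17, 3 passed the background filter through the embryonic arrays alone. Cdkn1c (p57), an imprinted inhibitor of cyclin-dependent kinases, had a large embryonic difference, with 12.93 and 12.95 against 6.97, 6.65 and 7.09 (difference 6.04 ± 0.36, limma adjusted p = 3.2e-06). No array of the groups overlapped. Ccng1 (cyclin G1, a p53 target) and Trp53inp2 (an autophagy factor) were higher in hypertrophic ACMs by 5.07-fold and 4.75-fold (limma adjusted p = 6.3e-05 and 3.7e-05).

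Markers of other cells of the heart were measured beside these genes. The summed intensity of 22 endothelial markers was 13600 to 16500 in embryonic CMs and 6839 to 10580 in hypertrophic ACMs, and 10 of the 22 were higher in embryonic CMs against 2 in hypertrophic ACMs. Tek, the angiopoietin receptor, was 5.13-fold higher in embryonic CMs (limma adjusted p = 0.00048), and Ly6c1 was 18.4-fold higher in hypertrophic ACMs (limma adjusted p = 2.3e-05). Of the 22, 20 were above background on all 5 arrays and Kdr was below it on every hypertrophic array. The 8 erythroid markers summed to 34720 to 35090 in embryonic CMs and 250.7 to 3519 in hypertrophic ACMs, where 6 were below background on every array. Hba-a1, an α-globin, stood at 15.02 and 15.01 on the embryonic and at 6.72, 11.71 and 8.72 on the hypertrophic arrays (difference 5.96 ± 1.40, limma adjusted p = 0.0073), so that hypertrophic replicate 2 was far above the other 2. The embryonic globin Hbb-y was higher in embryonic CMs by at least 38.9-fold (limma adjusted p = 7.2e-07). Globin probes may read near-identical copies. The 11 epicardial markers summed to 941.5 to 945.3 and 448.1 to 485.6, with 3 higher in embryonic CMs, a share near that of all genes, and none in hypertrophic ACMs. Of the 11, 3 passed the filter through the embryonic arrays alone, as did 7 of the 8 erythroid markers. The part of these cells in the cell cycle, transcription factor and signalling values was not tested.

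Imprinted growth genes, many of which are shut down after birth, were higher in embryonic CMs in 12 of 18 tested and 25 listed (median 1.69, or 1.53 at bounds) and in hypertrophic ACMs in 1, and 6 of the 18 passed the background filter through the embryonic arrays alone. Mest, a paternally expressed gene, stood at 11.53 and 11.23 in embryonic CMs, 5.58, 5.64 and 5.37 in hypertrophic ACMs and 4.77, 4.33 and 4.46 in normal ACMs. It differed by 5.85 ± 0.20 (limma adjusted p = 2.3e-07) from hypertrophic ACMs, in which it was above background on all 3 arrays, and it was below background on all 3 normal arrays. Dlk1, a transmembrane ligand related to Notch ligands, was 34.8-fold higher in embryonic CMs (limma adjusted p = 5.9e-07), with 4.78, 4.32 and 4.43 in hypertrophic ACMs, above background on 1 array. Grb10, an adaptor that dampens insulin receptor signalling, was 6.39-fold higher in embryonic CMs (limma adjusted p = 4.1e-06). Igf2, the fetal growth factor, was named after its values were seen. It stood at 14.71 and 14.90 in embryonic CMs, 9.43, 10.27 and 11.30 in hypertrophic ACMs and 8.15, 8.10 and 9.18 in normal ACMs (difference 4.48 ± 0.50, limma adjusted p = 0.00013; hypertrophic minus normal 1.85 ± 0.45, adjusted p = 0.047). The splicing factor gene Snrpn was higher in hypertrophic ACMs, with a difference of -1.75 ± 0.21 (limma adjusted p = 0.00016). Peg10, Slc38a4, Gnas and Phlda2 had the smallest differences, from -0.15 to 0.32, and none passed. Phlda2 was below background on every hypertrophic array, and Peg10 was above it on 1 embryonic and 1 hypertrophic array. Slc38a4 was also dim, at 4.98 and 5.26 in embryonic CMs. Small differences of such dim probes do not show similar levels.

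The fetal RNA-binding, HMG and chromatin genes were higher in embryonic CMs in 13 of 17 and in hypertrophic ACMs in none (median 1.70), beside 25.2% and 20.9% of all genes. Of the 17, 3 passed the background filter through the embryonic arrays alone. Igf2bp3 and Igf2bp1 encode RNA-binding proteins of fetal tissue and were above background on both embryonic arrays and on no hypertrophic or normal array. Igf2bp3 levels were 10.31 and 10.41 in embryonic CMs against 4.26, 4.36 and 4.37 in hypertrophic ACMs, at least 49.3-fold apart (limma adjusted p = 6.6e-08), and Igf2bp1 was at least 8.89-fold higher (limma adjusted p = 6.9e-07). Hmgb2, a chromatin protein of proliferating cells, differed by 3.77 ± 0.23 (limma adjusted p = 4.1e-06) and Bcl11a, a transcriptional repressor known for globin switching, by 2.70 ± 0.19 (limma adjusted p = 8.7e-06). In hypertrophic against normal ACMs 0 of the 17 passed in either direction.

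Cytosolic ribosomal protein genes were higher in embryonic CMs in 42 of 52 (median 1.13), and 1 was higher in hypertrophic ACMs. Rps6, Rps26 and Rpl4 of this list had differences of 2.13 ± 0.18, 2.05 ± 0.17 and 1.90 ± 0.18 (limma adjusted p = 2.6e-05, 1.9e-05 and 4.2e-05). Rpl3l was the exception. It encodes the muscle paralog of Rpl3 and showed the largest difference among genes above background in both groups, with 6.19 and 6.57 in embryonic CMs, 14.41, 14.26 and 14.38 in hypertrophic ACMs and 14.67, 14.59 and 14.54 in normal ACMs (difference -7.98 ± 0.17, limma adjusted p = 2.5e-08). Rpl3 itself was 2.78-fold higher in embryonic CMs (limma adjusted p = 0.00021), and it was also 0.95 higher in hypertrophic than in normal ACMs (limma adjusted p = 0.013).

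Cardiac developmental transcription factors divided less clearly, with 14 of 33 higher in embryonic CMs (23 under median scaling), 4 higher in hypertrophic ACMs and a median of 0.61. Of the 33, 4 passed the background filter through the embryonic arrays alone. Tead2, a TEAD factor of early development, stood at 11.19 and 11.30 in embryonic CMs against 5.97, 6.42 and 5.96 in hypertrophic ACMs (difference 5.13 ± 0.21, limma adjusted p = 5.9e-07). Hey2, a Notch target of compact ventricular muscle, was 14.8-fold higher in embryonic CMs (limma adjusted p = 1.9e-06). Isl1, the second heart field factor, was above background on the embryonic arrays alone and was at least 2.43-fold higher there (limma adjusted p = 6.8e-05). Prrx1, a mesenchymal homeobox gene, was 6.74-fold higher in hypertrophic ACMs (limma adjusted p = 2.2e-05). The other 3 in that direction, Smyd1, Hand2 and Irx3, were named after their values were seen and lost their calls under median scaling, and the count of 4 was 1 without either embryonic array or without hypertrophic replicate 1 or 3. The core factors Gata4, Tbx5, Mef2c, Tbx20 and Nkx2-5, also named after their values were seen, gave differences of -0.17, -0.07, 0.32, 0.45 and 0.61 and did not pass. Another probe of Mef2c had the opposite sign.

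In developmental signalling, 15 of 41 genes were higher in embryonic CMs and 4 in hypertrophic ACMs (median 0.44), or 23 and 2 under median scaling, and 9 of the 41 passed the background filter through the embryonic arrays alone. Gpc3, a cell surface glypican, and the heparin-binding growth factor Mdk (midkine) were intermediate in hypertrophic ACMs. Gpc3 levels were 12.005 and 12.37 in embryonic CMs, 6.17, 6.33 and 6.48 in hypertrophic ACMs and 5.18, 5.50 and 5.18 in normal ACMs, with differences of 5.86 ± 0.19 (limma adjusted p = 2.3e-07) and, hypertrophic minus normal, 1.04 ± 0.17 (limma adjusted p = 0.011). Mdk levels were 12.70 and 13.02 in embryonic CMs, 8.10, 8.39 and 7.93 in hypertrophic ACMs and 5.85, 6.09 and 5.33 in normal ACMs, with differences of 4.72 ± 0.25 (limma adjusted p = 1.9e-06) and 2.38 ± 0.23 (limma adjusted p = 0.00083). In both genes the 3 groups were separate. Bmp7, a BMP ligand, was 21.5-fold higher in embryonic CMs (limma adjusted p = 8.9e-07) and stood near background in both adult groups. Fgf1 was the main exception, 15.1-fold higher in hypertrophic ACMs (limma adjusted p = 5.9e-07), at 10.72, 10.77 and 10.81 there and 11.12, 11.08 and 11.08 in normal ACMs.

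Fetal sarcomere and cytoskeleton isoforms were higher in embryonic CMs in 12 of 17, with a median of 1.77, while 1 was higher in hypertrophic ACMs and 4 did not pass. Under median scaling 15 were higher in embryonic CMs. Of the same 17, 7 were higher and 1 lower in hypertrophic than in normal ACMs. Tnni1, the troponin I isoform that cardiac muscle uses before birth, did not return in hypertrophy. It stood at 10.51 and 10.64 in embryonic CMs and, below background on every array, at 4.26, 4.23 and 4.41 in hypertrophic and 4.47, 4.44 and 4.30 in normal ACMs, a difference of at least 57.2-fold (limma adjusted p = 6.3e-08). Tnnt1, slow skeletal troponin T, was 13.5-fold higher in embryonic CMs (limma adjusted p = 2.7e-06), and its hypertrophic minus normal difference of -0.60 ± 0.19 did not pass (limma adjusted p = 0.11).

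Myh7, the β-myosin heavy chain, was intermediate. Its levels were 12.52 and 12.38 in embryonic CMs, 9.33, 9.14 and 9.09 in hypertrophic ACMs and 7.64, 6.82 and 6.84 in normal ACMs. The embryonic difference was 3.27 ± 0.26 (limma adjusted p = 1.5e-05), a 9.63-fold higher level, and the hypertrophic minus normal difference was 2.08 ± 0.23 (limma adjusted p = 0.0016). No arrays of the 3 groups overlapped. Myh10, non-muscle myosin IIB, had the same order, with 2.97 ± 0.21 (limma adjusted p = 7.6e-06) and 1.24 ± 0.18 (limma adjusted p = 0.0064). So did the atrial and fetal light chain Myl4, at 14.79 and 14.76 in embryonic CMs, 11.75, 11.41 and 13.24 in hypertrophic ACMs and 10.28, 10.79 and 10.16 in normal ACMs, with 2.64 ± 0.47 (limma adjusted p = 0.0016) and 1.72 ± 0.42 (limma adjusted p = 0.046). Hypertrophic replicate 3 was the highest of its group in Myl4, in the atrial light chain Myl7 (7.95, 8.22 and 9.83) and in the atrial Ca2+ pump regulator Sln (9.43, 8.93 and 12.12), which was named after its values were seen. Of 14 atrial and conduction genes, 6 were higher in embryonic CMs and 1 in hypertrophic ACMs (Kcnj3, not called under median scaling), beside 25.2% and 20.9% of all genes. Of the 14, 2 passed the background filter through the embryonic arrays alone.

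Acta2, smooth muscle α-actin, which early CMs also express, stood at 14.82 and 14.78 in embryonic CMs and 11.93, 12.08 and 12.58 in hypertrophic ACMs, where it was lower than the 13.66, 12.94 and 13.35 of normal ACMs. The differences were 2.60 ± 0.26 (limma adjusted p = 6e-05) and -1.12 ± 0.23 (limma adjusted p = 0.026). The 4 members that did not pass were cytoskeletal genes. Median scaling called Nes, Actn1 and Cnn2 higher in embryonic CMs, at 1.64, 1.15 and 1.54. The intermediate filament gene Nes (nestin) gave 8.46 and 8.46 in embryonic CMs against 7.19, 8.07 and 7.59 in hypertrophic ACMs, with 5.02, 5.87 and 4.97 in normal ACMs. Its embryonic difference was 0.84 ± 0.32 (limma adjusted p = 0.06), beside a hypertrophic minus normal difference of 2.34 ± 0.29 (limma adjusted p = 0.0027). Non-muscle α-actinin Actn1 gave 0.51 ± 0.27 (limma adjusted p = 0.16), beside 1.49 ± 0.25 (limma adjusted p = 0.01). Cnn2 and Tagln, actin-binding proteins, gave 0.82 ± 0.52 and 0.14 ± 0.29 (limma adjusted p = 0.23 and 0.73). Vim (vimentin), which fibroblasts and endothelial cells also express, was named after its values were seen and lay between, at 12.21 and 12.27 in embryonic CMs, 9.18, 10.35 and 9.90 in hypertrophic ACMs and 6.53, 7.82 and 7.47 in normal ACMs (difference 2.43 ± 0.41, limma adjusted p = 0.0012). The 16 smooth muscle and pericyte markers, among which Acta2 and Tagln also count, summed to 34900 to 35100 in embryonic CMs and 26500 to 31020 in hypertrophic ACMs, with 14 above background on all 5 arrays. Of them 1 was higher in embryonic CMs and 6 in hypertrophic ACMs, or 3 and 2 under median scaling, and their part in these values was not tested.

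**Figure D2:**
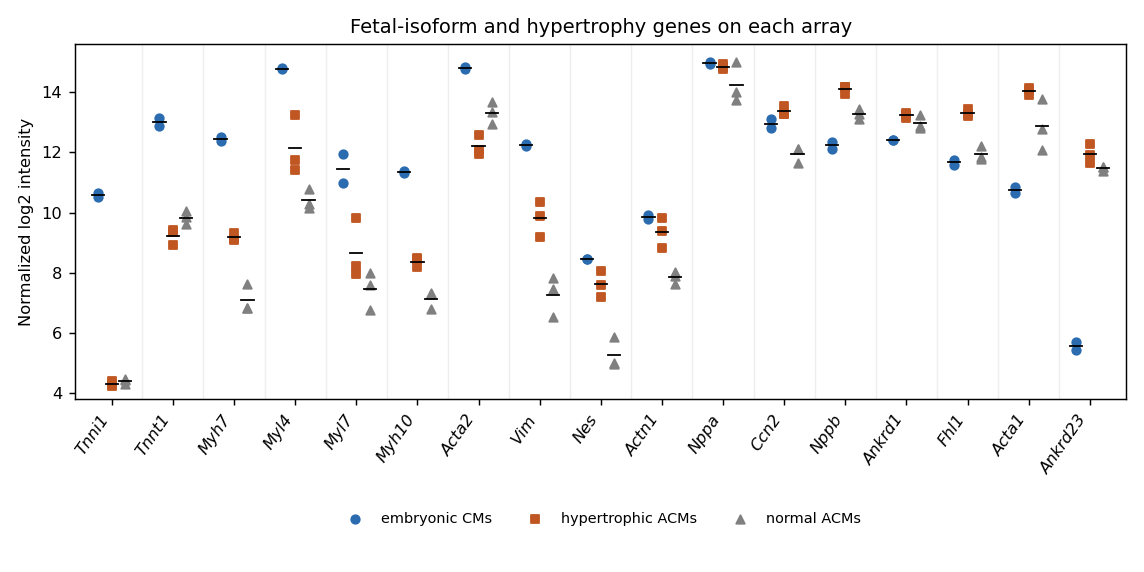
Normalized log2 intensity of 17 fetal-isoform and hypertrophy genes on each array of embryonic CMs (blue circles, n = 2), hypertrophic ACMs (orange squares, n = 3) and normal ACMs (grey triangles, n = 3), with group means as black lines. Tnni1 is high on the embryonic arrays alone, Myh7 falls between the groups at 9.33, 9.14 and 9.09 in hypertrophic ACMs, and Ankrd23 is at 5.45 and 5.71 in embryonic CMs and above 11 in both adult groups.

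Hypertrophy markers ran against the fetal direction. Of 16, 11 were higher in hypertrophic ACMs than in embryonic CMs, 1 (Myh7) was higher in embryonic CMs and 4 did not pass (median -1.002). The count of 11 was 7 under median scaling and 7 without embryonic replicate 1. Against normal ACMs, 7 of the 16 were higher in hypertrophic ACMs. Acta1, skeletal α-actin, which the fetal heart expresses, was lower in embryonic CMs, at 10.66 and 10.84, than in hypertrophic ACMs, at 13.91, 14.06 and 14.14 (difference -3.29 ± 0.40, limma adjusted p = 0.00019). Normal ACMs stood at 13.77, 12.07 and 12.78, and the hypertrophic minus normal difference of 1.17 ± 0.36 did not pass (limma adjusted p = 0.099). Nppb, B-type natriuretic peptide, gave 12.35 and 12.12 in embryonic CMs, 14.17, 14.18 and 13.94 in hypertrophic ACMs and 13.46, 13.28 and 13.12 in normal ACMs (difference -1.86 ± 0.18, limma adjusted p = 5.3e-05), with no overlap between groups.

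Ankrd23, an ankyrin repeat protein of the titin stretch complex, differed by -6.38 ± 0.21 (limma adjusted p = 2.3e-07), with 5.45 and 5.71 in embryonic CMs, 12.29, 11.93 and 11.65 in hypertrophic ACMs and 11.53, 11.38 and 11.53 in normal ACMs. The hypertrophic minus normal difference of 0.48 ± 0.19 did not pass (limma adjusted p = 0.18). The LIM protein Fhl2 was 4.38-fold higher in hypertrophic ACMs (limma adjusted p = 3.6e-05). The related Fhl1, named after its values were seen, was higher in hypertrophic ACMs than in both other groups, at 11.59 and 11.75 in embryonic CMs, 13.22, 13.44 and 13.26 in hypertrophic ACMs and 11.83, 12.22 and 11.77 in normal ACMs (difference -1.63 ± 0.19, limma adjusted p = 0.00015; hypertrophic minus normal 1.36 ± 0.17, adjusted p = 0.0027). Ankrd1, also named after its values were seen, gave -0.82 ± 0.18 (limma adjusted p = 0.0049).

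The other 4 markers did not pass. Nppa, atrial natriuretic peptide, stood at 14.94 and 14.99 in embryonic CMs against 14.93, 14.82 and 14.78 in hypertrophic ACMs (difference 0.13 ± 0.32, 95% interval -0.60 to 0.85), near the top of the scale, where the highest value on any array was 15.14. On the normal arrays it stood at 14.99, 14.004 and 13.74. Ccn2, the connective tissue growth factor, gave 12.82 and 13.10 in embryonic CMs against 13.55, 13.26 and 13.29 in hypertrophic ACMs (difference -0.41 ± 0.21, 95% interval -0.88 to 0.07), beside 11.64, 12.12 and 12.13 in normal ACMs and a hypertrophic minus normal difference of 1.41 ± 0.19 (limma adjusted p = 0.004). Hspb1, a small heat shock protein, and the Z-disc LIM protein Csrp3 gave intervals of -0.76 to 0.40 and -0.78 to -0.06 (limma adjusted p = 0.6 and 0.058). An interval within 1 of 0 was found for 42.2% of all genes.

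Isoform pairs were measured for both members in 18 of 22 pairs. The fetal or broadly expressed member was higher in embryonic CMs in 12 and in hypertrophic ACMs in 3 (Acta1, Pygb and Ckmt1). The adult or muscle member was higher in hypertrophic ACMs in 15 and in embryonic CMs in none. Both members followed their role in 10 pairs. Under median scaling 13 fetal members were higher in embryonic CMs and 13 adult members in hypertrophic ACMs. Cardiac troponin I (Tnni3) stood at 8.54 and 8.54 in embryonic CMs against 10.92, 10.40 and 10.47 in hypertrophic ACMs (difference -2.06 ± 0.23, limma adjusted p = 0.00013), opposite to Tnni1. The α-myosin heavy chain Myh6 gave 12.90 and 13.20 in embryonic CMs against 14.95, 14.99 and 14.90 in hypertrophic ACMs (difference -1.90 ± 0.16, limma adjusted p = 2.4e-05). Its hypertrophic levels were near the top of the scale, so the size of this difference is less certain. The ventricular light chains Myl2 and Myl3 and cardiac actin Actc1 did not pass, with 95% intervals of -0.62 to 0.24, -0.30 to 0.38 and -0.83 to -0.01 (limma adjusted p = 0.45, 0.87 and 0.088). Myl2 stood at 14.67 and 14.63 in embryonic CMs against 14.85, 14.99 and 14.67 in hypertrophic ACMs and Myl3 at 15.08 and 15.08 in embryonic CMs against 14.99, 15.14 and 15.02 in hypertrophic ACMs, near the top of the scale.

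Isoforms of energy metabolism were among the pairs that shifted. Ckmt2, the sarcomeric mitochondrial creatine kinase, stood at 7.79 and 7.62 in embryonic CMs and 14.78, 14.76 and 14.73 in hypertrophic ACMs (difference -7.05 ± 0.15, limma adjusted p = 2.5e-08), and at 14.94, 14.96 and 14.90 in normal ACMs. Slc2a4 (GLUT4), the insulin-responsive glucose transporter, was 17.4-fold higher in hypertrophic ACMs (limma adjusted p = 6.1e-07), whereas Slc2a1 (GLUT1) was 2.34-fold higher in embryonic CMs (limma adjusted p = 0.0013) and 1.00 higher in hypertrophic than in normal ACMs (limma adjusted p = 0.018). The heart isoforms of cytochrome oxidase, Cox7a1, Cox8b and Cox6a2, gave differences of -1.98 ± 0.16, -1.88 ± 0.15 and -1.10 ± 0.16 (limma adjusted p = 2e-05, 1.7e-05 and 0.00056). Their broad partners Cox8a and Cox6a1 gave 1.45 ± 0.20 and 1.65 ± 0.17 (limma adjusted p = 0.0004 and 7.9e-05). Cox7a2 did not pass (95% interval -0.42 to 0.53). Hypertrophic means of Ckmt2, Cox7a1 and Cox6a2 were 14.76, 14.78 and 14.98, near the top of the scale, so the sizes of their differences are less certain. Ckmt1, the ubiquitous mitochondrial creatine kinase, was higher in hypertrophic ACMs (-1.51 ± 0.33, limma adjusted p = 0.0049), and this call was lost without embryonic replicate 2. Ckmt1 was above background on 1 embryonic, 3 hypertrophic and 1 normal array, so these differences rest partly on levels near background. Its hypertrophic minus normal difference was 1.64 ± 0.29 (limma adjusted p = 0.015). Pdk3 and Pdk4, kinases that switch off pyruvate dehydrogenase, went in opposite directions, at 2.53 ± 0.25 (limma adjusted p = 6.8e-05) and -1.36 ± 0.43 (limma adjusted p = 0.028). The Pdk4 call was lost in 8 of the 22 alternative settings, among them median scaling and leaving out embryonic replicate 1 or 2 or hypertrophic replicate 2 or 3.

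**Figure D3:**
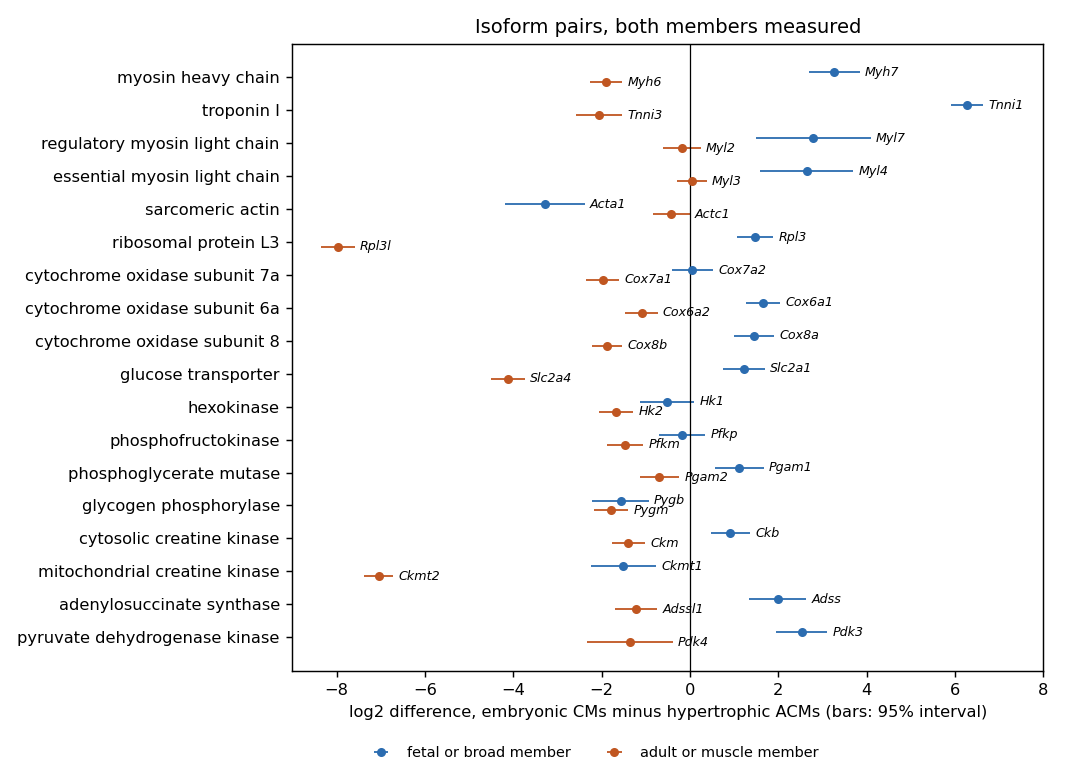
Points give the log2 difference, embryonic CMs minus hypertrophic ACMs, of the fetal or broad member (blue) and the adult or muscle member (orange) of 18 isoform pairs, with bars for the 95% interval. Most blue points lie right of 0 and most orange points left of it, with Rpl3l and Ckmt2 farthest left at -7.98 and -7.05, while Tnni1 was below background in hypertrophic ACMs and its point is not a measured fold.

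Of 18 CM defining genes, 8 were higher in hypertrophic ACMs, 0 in embryonic CMs and 10 did not pass (median -0.46). The adult sarcomere and Z-disc list was higher in hypertrophic ACMs in 15 of 23 and in embryonic CMs in 1 (median -1.40), and median scaling gave the same 2 counts. Tcap (telethonin), the titin cap, stood at 10.86 and 10.74 in embryonic CMs against 14.54, 13.94 and 14.37 in hypertrophic ACMs (difference -3.49 ± 0.24, limma adjusted p = 7.6e-06), a 11.2-fold difference. Pdlim5 and Ldb3, PDZ-LIM proteins of the Z-disc, were 6.19-fold and 6.43-fold higher in hypertrophic ACMs (limma adjusted p = 9e-05 and 0.00016). Desmin (Des), the muscle intermediate filament, was higher in hypertrophic ACMs than in both other groups, with 11.98 and 12.13 in embryonic CMs, 14.14, 14.41 and 14.23 in hypertrophic ACMs and 13.22, 12.95 and 13.43 in normal ACMs (difference -2.21 ± 0.19, limma adjusted p = 2.7e-05; hypertrophic minus normal 1.06 ± 0.17, adjusted p = 0.0092). Tpm1 was the member higher in embryonic CMs (0.99 ± 0.35, limma adjusted p = 0.042), a call that was lost in 9 of the 22 alternative settings.

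Most extracellular matrix genes were higher in hypertrophic than in normal ACMs. Of 47 genes tested and 61 listed, 12 were higher in embryonic CMs than in hypertrophic ACMs, 5 were lower and 30 did not pass (median 0.23), beside 25.2%, 20.9% and 53.9% of all genes. Of the 47, 5 passed the background filter through the embryonic arrays alone. Against normal ACMs 33 of the 47 were higher in hypertrophic ACMs, beside 4.11% of all genes, and none was lower. Lum (lumican), a collagen-fibril proteoglycan, gave 9.53 and 9.64 in embryonic CMs, 9.58, 9.95 and 9.43 in hypertrophic ACMs and 7.09, 7.71 and 7.40 in normal ACMs (difference -0.07 ± 0.23, 95% interval -0.59 to 0.45; hypertrophic minus normal 2.25 ± 0.21, adjusted p = 0.00072). Loxl1, an elastin cross-linking enzyme, gave 9.82 and 9.97 in embryonic CMs, 9.62, 10.28 and 10.02 in hypertrophic ACMs and 6.87, 8.45 and 7.53 in normal ACMs (difference -0.08 ± 0.40, 95% interval -0.98 to 0.83; hypertrophic minus normal 2.36 ± 0.36, adjusted p = 0.0072). In both genes the embryonic and hypertrophic arrays overlapped and lay above all normal arrays. Plod2, a collagen-modifying lysyl hydroxylase, gave 7.42 and 8.28 in embryonic CMs, 7.81, 7.86 and 7.69 in hypertrophic ACMs and 7.79, 7.85 and 8.17 in normal ACMs, with an interval of -0.51 to 0.64 against embryonic CMs and a hypertrophic minus normal difference of -0.15 ± 0.23 that did not pass (limma adjusted p = 0.77). Its 3 groups overlapped. Col6a2 gave an interval of -0.67 to 0.91 and a hypertrophic minus normal difference of 2.58 ± 0.31 (limma adjusted p = 0.0025). Col1a1, named after its values were seen, was wider in spread, at 9.09 and 9.75 in embryonic CMs, 9.24, 11.10 and 10.40 in hypertrophic ACMs and 4.38, 5.93 and 5.66 in normal ACMs (95% interval -2.13 to 0.48).

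Members that were higher in the fetus included genes of basement membrane, elastic fibres and the early provisional matrix. Col18a1, a basement membrane collagen, stood at 12.90 and 12.52 in embryonic CMs, 8.28, 9.16 and 8.91 in hypertrophic ACMs and 6.28, 6.27 and 6.74 in normal ACMs (difference 3.93 ± 0.28, limma adjusted p = 9.2e-06; hypertrophic minus normal 2.36 ± 0.25, adjusted p = 0.0014). Eln (elastin) and the microfibril gene Mfap2 were 5.29-fold and 7.76-fold higher in embryonic CMs (limma adjusted p = 5.2e-05 and 3.5e-06), and hypertrophic ACMs exceeded normal ACMs in Eln by 3.41 (limma adjusted p = 0.00011). Mfap2 was below background on every normal array, and hypertrophic ACMs were at least 3.40-fold higher (limma adjusted p = 0.00023). Vcan (versican), a proteoglycan of the early heart, was above background on the embryonic arrays alone, at least 1.78-fold higher there (limma adjusted p = 0.00013).

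Mfap5, another microfibril protein, showed the largest difference of the list towards hypertrophy. It gave 7.55 and 6.94 in embryonic CMs, 9.63, 10.50 and 10.45 in hypertrophic ACMs and 4.98, 6.05 and 5.52 in normal ACMs (difference -2.95 ± 0.37, limma adjusted p = 0.00022; hypertrophic minus normal 4.67 ± 0.33, adjusted p = 0.00019). The other 4, named after their values were seen, were the protease inhibitor Timp1, the collagen cross-linker Lox and the ligands Tgfb3 and Tgfb1, with differences of -1.23 ± 0.35, -1.03 ± 0.30, -0.84 ± 0.21 and -0.49 ± 0.17. Each of the 4 lost its call under median scaling, where Tgfb1 turned sign, 21 matrix genes were higher in embryonic CMs and 1 in hypertrophic ACMs. The count of 5 was 1 without embryonic replicate 1, 3 without embryonic replicate 2 and 3 without hypertrophic replicate 2. The summed intensity of 20 fibroblast markers was 8167 to 9194 in embryonic CMs, 8553 to 13950 in hypertrophic ACMs and 2039 to 4020 in normal ACMs. Of these markers 17 were above background on all 5 arrays and Gsn was below it on both embryonic arrays. Between embryonic and hypertrophic cells 3 passed in each direction (median -0.26, or 0.37 under median scaling), and 14 of the 20 were higher in hypertrophic than in normal ACMs. Pi16 was 6.56-fold higher in hypertrophic ACMs (limma adjusted p = 0.00049), while Vcam1 and Pdpn were 7.79-fold and 4.80-fold higher in embryonic CMs (limma adjusted p = 9.9e-06 and 0.00097). The part of fibroblasts in the matrix values was not tested.

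**Figure D4:**
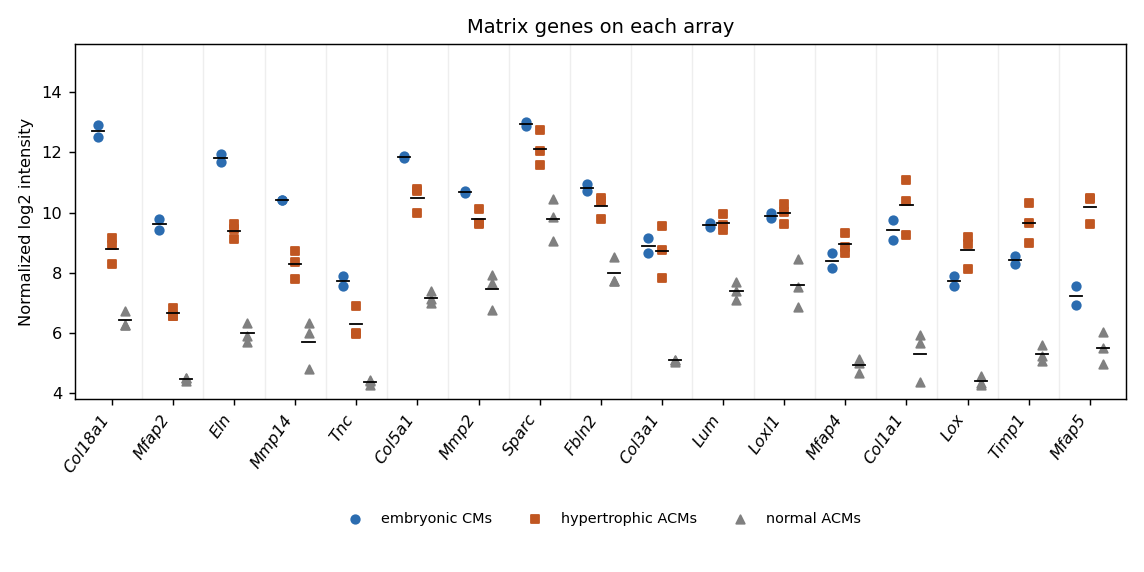
Normalized log2 intensity of 17 matrix genes on each array of embryonic CMs (blue circles, n = 2), hypertrophic ACMs (orange squares, n = 3) and normal ACMs (grey triangles, n = 3), with group means as black lines. From left to right the genes pass from higher in embryonic CMs (Col18a1, 3.93) to higher in hypertrophic ACMs (Mfap5, -2.95), and the normal ACM arrays lie lowest in each.

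Genes of oxidative metabolism were higher in hypertrophic ACMs than in the fetus. Of 48 respiratory chain and ATP synthase genes tested (53 listed), 39 were higher in hypertrophic ACMs and none in embryonic CMs (median -0.72), beside 20.9% of all genes. For fatty acid oxidation and uptake it was 23 of 29 with 1 in the other direction (median -1.01), for the TCA cycle and pyruvate dehydrogenase 16 of 24 with 2 (median -0.90) and for branched-chain amino acid and ketone use 15 of 19 with 0 (median -1.37). Many of these differences were small, and 12, 15 and 9 members of the first 3 lists were called with a log2 difference over 1. Median scaling left 30, 19, 11 and 11 of the 4 lists higher in hypertrophic ACMs, and the respiratory count was 25 without embryonic replicate 2. In hypertrophic against normal ACMs, 0, 0, 2 and 0 of the 4 lists were higher and 0, 2, 1 and 1 lower in hypertrophy.

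Lipid droplet and uptake genes led the fatty acid list. Plin5, which ties lipid droplets to mitochondria, stood at 4.36 and 4.58 in embryonic CMs, above background on 1 of 2 arrays, and at 10.04, 9.66 and 9.55 in hypertrophic ACMs (difference -5.28 ± 0.19, limma adjusted p = 3.4e-07). Normal ACMs were higher, at 10.63, 10.42 and 10.53 (hypertrophic minus normal -0.78 ± 0.17, limma adjusted p = 0.033). Dgat2 (triglyceride synthesis), Slc27a1 (fatty acid transport) and Pnpla2 (triglyceride lipase) were 14.8-fold, 8.93-fold and 7.12-fold higher in hypertrophic ACMs (limma adjusted p = 1e-05, 3.5e-06 and 1.2e-05). Acot1, an acyl-CoA thioesterase, was the exception, at 10.18 and 10.37 in embryonic CMs against 7.96, 8.67 and 8.04 in hypertrophic ACMs (difference 2.05 ± 0.37, limma adjusted p = 0.0019). Cpt1b, which admits fatty acids to mitochondria, differed by less, at -0.94 ± 0.15 (limma adjusted p = 0.001). Of the 4 genes with the smallest p among respiratory genes, Cox7a1 and Cox8b are given above, and the complex I subunit Ndufb3 and the cytochrome oxidase-associated Ndufa4 gave -1.43 ± 0.20 and -1.47 ± 0.16 (limma adjusted p = 0.00042 and 9.4e-05).

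In the TCA list Ogdh, a subunit of the oxoglutarate dehydrogenase complex, was 6.45-fold higher in hypertrophic ACMs (limma adjusted p = 9.8e-05), while Idh3b, a subunit of isocitrate dehydrogenase, was 3.91-fold higher in embryonic CMs (limma adjusted p = 9.4e-05). Dlat, a subunit of pyruvate dehydrogenase, lay between, with 6.97 and 7.41 in embryonic CMs, 9.43, 8.97 and 8.86 in hypertrophic ACMs and 10.08, 10.26 and 9.91 in normal ACMs (difference -1.89 ± 0.23, limma adjusted p = 0.00019; hypertrophic minus normal -0.997 ± 0.21, adjusted p = 0.026). Ketone use was led by Bdh1, 3-hydroxybutyrate dehydrogenase, at 5.38 and 5.25 in embryonic CMs and 10.24, 9.04 and 9.44 in hypertrophic ACMs (difference -4.26 ± 0.30, limma adjusted p = 9e-06), and Oxct1, the ketone-activating transferase, was 4.33-fold higher in hypertrophic ACMs (limma adjusted p = 1.1e-05). Promoters of fatty acid oxidation and respiratory genes held the estrogen-related receptor letters AAGGTCA, on either strand, in 1 of 26 (3.85%) and 2 of 41 (4.88%), beside 4.72% of all promoters and 3.24% of those of the genes tested.

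Glycolysis and glucose handling had no common direction. Of 27 genes, 5 were higher in embryonic CMs, 9 in hypertrophic ACMs and 13 did not pass, and the median of -0.27 turned to 0.11 under median scaling. Of the 27, 2 passed the background filter through the embryonic arrays alone. Slc2a3 (GLUT3) and aldolase C (Aldoc) were the largest on the embryonic side, 10.3-fold and at least 8.36-fold (limma adjusted p = 1.2e-06 and 8.9e-07). Slc2a3 was above background on 1 hypertrophic array. Muscle members such as Pfkfb2 and Pygm were on the hypertrophic side, at -2.75 ± 0.23 and -1.79 ± 0.17 (limma adjusted p = 2.6e-05 and 5.1e-05). Ldha, which makes lactate, gave a 95% interval of -0.24 to 0.45, and Gapdh one of -0.45 to 0.21 near the top of the scale. Pfkp, the platelet phosphofructokinase, stood at 11.70 and 11.22 in embryonic CMs, 11.69, 11.74 and 11.49 in hypertrophic ACMs and 10.40, 9.98 and 10.60 in normal ACMs. It did not pass against embryonic CMs (95% interval -0.71 to 0.34) and was 1.32 higher than in normal ACMs (limma adjusted p = 0.0085). Eno2, the neuronal enolase, named after its values were seen, gave 8.57 and 8.61 in embryonic CMs, 8.85, 9.26 and 8.47 in hypertrophic ACMs and 5.15, 4.76 and 4.31 in normal ACMs (95% interval -0.92 to 0.38; hypertrophic minus normal 4.12 ± 0.26, adjusted p = 0.00011).

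Regulators of metabolism followed the enzymes in 9 of 18 genes, with 2 in the embryonic direction (median -0.81), or 7 and 5 under median scaling. Rxrg, a retinoid X receptor, was below background on both embryonic arrays and at 8.51, 8.10 and 8.39 in hypertrophic ACMs, at least 13.6-fold higher there (limma adjusted p = 1.3e-05), and its normal ACM levels of 9.30, 10.37 and 9.40 were higher still (hypertrophic minus normal -1.36 ± 0.27, adjusted p = 0.024). Perm1, a muscle regulator of PGC-1 target genes, and Lpin1 (lipin) were 13.8-fold and 12.5-fold higher in hypertrophic ACMs (limma adjusted p = 1.2e-06 and 1.7e-06). Nrf1 was 2.58-fold higher in embryonic CMs (limma adjusted p = 0.00093). Ppargc1a (PGC-1α), named after its values were seen, did not pass, with 9.99 and 10.14 in embryonic CMs against 10.004, 9.22 and 9.29 in hypertrophic ACMs (difference 0.56 ± 0.24, limma adjusted p = 0.089).

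Ion channels and calcium handling genes were higher in hypertrophic ACMs in 21 of 37 and in embryonic CMs in 4 (median -0.77, with 15 and 6 under median scaling). Of the 37, 2 passed the background filter through the embryonic arrays alone. Asph, whose locus also encodes junctin of the sarcoplasmic reticulum, stood at 5.09 and 5.14 in embryonic CMs against 10.16, 9.76 and 9.87 in hypertrophic ACMs (difference -4.82 ± 0.24, limma adjusted p = 1.5e-06). These values are those of the brightest of 11 Asph probes that passed the filter, and which product of the locus it reads was not examined. Hcn2, a pacemaker channel, was below background on both embryonic arrays and at least 18.7-fold higher in hypertrophic ACMs (limma adjusted p = 4.1e-06). On the embryonic side were Cacna1h, a T-type calcium channel, and Gja5 (connexin 40). Cacna1h stood at 10.16 and 9.89 and, below background, at 4.64, 4.55 and 4.30, at least 39.1-fold higher in embryonic CMs (limma adjusted p = 3.4e-06). Gja5 gave 11.11 and 11.32 in embryonic CMs against 6.67, 6.65 and 6.70 in hypertrophic ACMs (difference 4.54 ± 0.25, limma adjusted p = 2.5e-06), with 5.82, 6.40 and 5.46 in normal ACMs.

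Antioxidant and detoxification enzymes were higher in hypertrophic ACMs in 19 of 27 and in embryonic CMs in none (median -1.26), with 12 under median scaling. Nqo1, a quinone reductase, stood at 4.94 and 5.42 in embryonic CMs against 10.09, 9.80 and 10.01 in hypertrophic ACMs (difference -4.79 ± 0.22, limma adjusted p = 7.9e-07), and Gstk1 and Ephx2 were 10.5-fold and 7.19-fold higher in hypertrophic ACMs (limma adjusted p = 7.6e-06 and 4.2e-05). Of clock genes 6 of 15 were higher in hypertrophic ACMs and 2 in embryonic CMs, or 3 and 3 under median scaling, led by Nr1d1 at -1.98 ± 0.23 (limma adjusted p = 0.00014) and, the other way, Nfil3 at 2.35 ± 0.27 (limma adjusted p = 0.00015). The count of 6 was 3 without embryonic replicate 2, and the time of day of the samples is not given in the sources used here. Complement, acute phase and inflammation genes were higher in hypertrophic ACMs in 8 of 20 and in embryonic CMs in 3 (median -0.81), and the count of 8 was 5 without embryonic replicate 2. Serpina3n, an acute phase protease inhibitor, was the first of them, with 5.32 and 5.12 in embryonic CMs, 8.57, 9.54 and 10.01 in hypertrophic ACMs and 5.68, 5.14 and 5.68 in normal ACMs (difference -4.16 ± 0.37, limma adjusted p = 3.6e-05; hypertrophic minus normal 3.87 ± 0.33, adjusted p = 0.00057). The 19 leukocyte markers summed to 3603 to 4015 in embryonic CMs, 4832 to 6639 in hypertrophic ACMs and 1226 to 7591 in normal ACMs, and 15 of them were above background on all 5 arrays. Of them 2, the neutrophil genes S100a8 and S100a9, were higher in embryonic CMs. S100a9 was below background on every hypertrophic and normal array, and 2 of the 19 markers passed the background filter through the embryonic arrays alone. None of the 19 was higher in hypertrophic ACMs, or 5 and 4 without normal replicate 1 and normal replicate 2. Their part in the inflammation values was not tested. Of 25 interferon-inducible and antigen presentation genes, 1 was higher in embryonic CMs and 2 in hypertrophic ACMs. Median scaling turned this to 2 and 0, and 12 were higher in hypertrophic ACMs without normal replicate 2, the array that stood apart in these genes.

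Of 14 muscle splicing regulators, 6 were higher in embryonic CMs and 3 in hypertrophic ACMs, beside 25.2% and 20.9% of all genes. Median scaling gave 10 and 1. Rbfox1 was 9.81-fold higher in hypertrophic ACMs (limma adjusted p = 3.5e-06), and the general splicing repressor Ptbp1 was 4.35-fold higher in embryonic CMs (limma adjusted p = 0.00041). Immediate early and stress genes were higher in embryonic CMs in 6 and in hypertrophic ACMs in 6 of 25, near the shares of all genes. Median scaling gave 12 and 5. Klf6 was higher in embryonic CMs (2.00 ± 0.21, limma adjusted p = 9.3e-05) and Klf9 in hypertrophic ACMs (-2.45 ± 0.29, limma adjusted p = 0.00018).

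Across all genes, 630 (6.71%) were above background on both embryonic and no hypertrophic array, of which 363 passed the test, and 469 of the 630 were also above it on no normal array. In the other direction 147 (1.56%) were above background on all 3 hypertrophic and neither embryonic array, of which 116 passed. Of these 147, 96 were above background on all 3 normal arrays and 15 on none. Bex4, of a small X-linked family, had the largest bound on the embryonic side, with 11.86 and 11.62 against 4.56, 4.27 and 4.70, at least 128-fold (limma adjusted p = 4.6e-07). It was above background on all 3 normal arrays, at 6.10, 5.16 and 5.33. Capn6, a calpain without protease activity, exceeded hypertrophic ACMs at least 37.1-fold in embryonic CMs (limma adjusted p = 2.1e-07). On the hypertrophic side the largest bounds were those of Art1, an ADP-ribosyltransferase, and Ces1d, a carboxylesterase that hydrolyses lipid esters, at least 61.9-fold and 61.2-fold (limma adjusted p = 6.4e-07 and 7.1e-07). Art1 stood at 10.75, 10.09 and 10.72 in hypertrophic and 10.75, 10.14 and 10.56 in normal ACMs, while Ces1d, at 11.02, 10.42 and 10.08, was lower than the 11.997, 12.28 and 12.26 of normal ACMs (hypertrophic minus normal -1.67 ± 0.24, adjusted p = 0.0052). Tuba8 (an α-tubulin), 2210407C18Rik and Ldhd (D-lactate dehydrogenase) were at least 22.3-fold, 15-fold and 13.8-fold higher in hypertrophic ACMs (limma adjusted p = 6.2e-06, 0.00013 and 3.2e-06).

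Among genes above background on at least 1 array of each group, the 10 largest differences towards hypertrophic ACMs ran from -7.98 to -5.28. They were those of Rpl3l, Ckmt2, Plin4, Ankrd23, Lrtm1, Itga7, Slc25a34, Mapt, Chac1 and Plin5. Plin4, a lipid droplet protein, stood at 4.70 and 5.37 in embryonic CMs against 11.95, 11.57 and 12.36 in hypertrophic ACMs (difference -6.93 ± 0.29, limma adjusted p = 6.1e-07). Itga7, the muscle laminin receptor subunit, differed by -5.64 ± 0.20 (limma adjusted p = 3.1e-07). Mapt (tau) stood at 4.61 and 4.57 in embryonic CMs, above background on 1 array, against 9.95, 9.85 and 10.20 in hypertrophic ACMs. The hypertrophic minus normal differences of Plin4, Itga7 and Mapt were -0.06 ± 0.26, 0.45 ± 0.18 and -0.56 ± 0.20 and did not pass (limma adjusted p = 0.93, 0.19 and 0.14). Chac1, which degrades glutathione, gave 10.58, 10.16 and 10.68 in hypertrophic and 9.996, 8.87 and 8.65 in normal ACMs (hypertrophic minus normal 1.30 ± 0.34, adjusted p = 0.06).

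The 10 largest towards embryonic CMs were Cdkn1c, Hba-a1, Gpc3, Mest, Csrp1, Bex3 and the histone H2A genes H2ac12, H2ac15, H2ac7 and H2ac24, from 5.28 to 6.04. H2ac12 gave 12.83 and 12.79 in embryonic CMs against 6.13, 7.32 and 6.88 in hypertrophic ACMs, and histone probes may read near-identical copies. Csrp1, a LIM protein of smooth muscle, differed by 5.39 ± 0.96 (limma adjusted p = 0.0016) with an uneven hypertrophic group of 4.54, 8.03 and 4.34, in which only replicate 2 was above background.

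**Figure D5:**
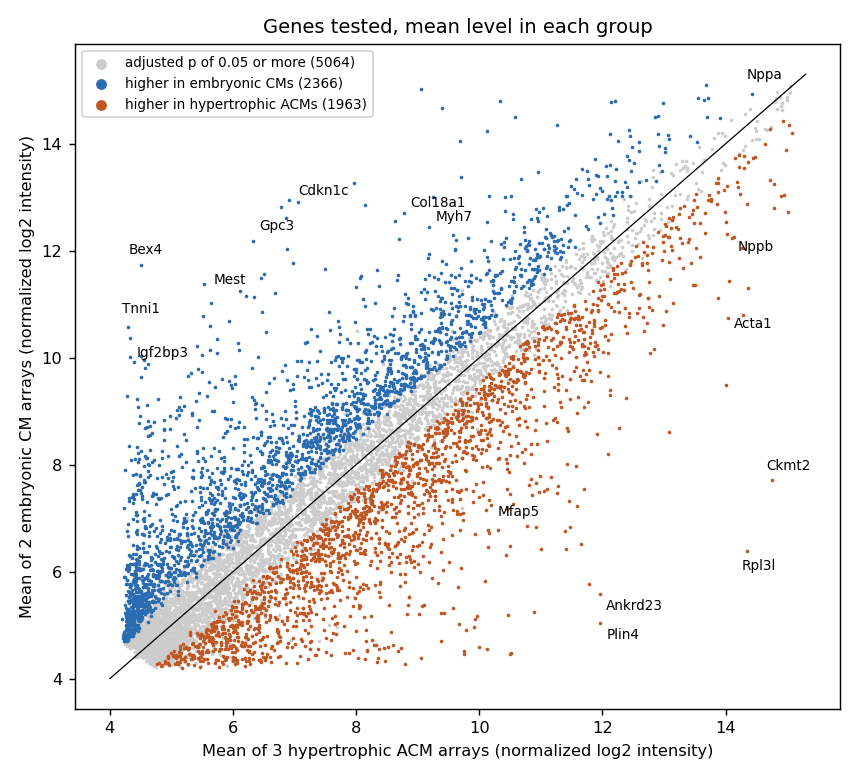
Each point is 1 of 9393 genes at its mean normalized log2 intensity on the hypertrophic arrays (x axis, n = 3) and the embryonic arrays (y axis, n = 2), in blue where higher in embryonic CMs (2366), in orange where higher in hypertrophic ACMs (1963) and in grey where it did not pass (5064), with equal levels on the black line. Rpl3l and Ckmt2 lie farthest to the lower right and Bex4 and Tnni1 at the upper left.

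Genes that the study names for dedifferentiation or cycling of CMs were also compared. Of 15 tested, 9 were higher in embryonic CMs, 2 in hypertrophic ACMs and 4 did not pass (median 2.01). Myh7 is among the 9 and Myh6 among the 2. The paper reports both of these transcripts as lowered in dedifferentiated myocytes of infarcted hearts. Anln, Cdk2, Ccnd3, Kif11, Foxm1 and Cdk14, also higher in embryonic CMs, are cell cycle genes, and Anln, Cdk2 and Ccnd3 also count in lists above. The counts thus mix genes lowered and raised in dedifferentiation and do not measure it. Of the 15, 3 passed the background filter through the embryonic arrays alone. S100a6, a calcium-binding protein, was higher in hypertrophic ACMs, at 7.83, 8.40 and 8.50, than in embryonic CMs, at 5.03 and 5.30, or normal ACMs, at 4.78, 5.86 and 5.25 (difference -3.08 ± 0.32, limma adjusted p = 8.3e-05; hypertrophic minus normal 2.95 ± 0.29, adjusted p = 0.0009). Tmsb10 (thymosin β10), an actin monomer-binding protein, was highest in embryonic CMs, at 14.34 and 14.36 in embryonic CMs, 10.48, 11.82 and 11.49 in hypertrophic ACMs and 8.22, 9.69 and 9.69 in normal ACMs (difference 3.09 ± 0.49, limma adjusted p = 0.00094; hypertrophic minus normal 2.06 ± 0.44, adjusted p = 0.03). The 2 genes thus differed in which group was highest. Foxm1, a transcription factor of mitosis, Kif11, a spindle kinesin, and Cdk14 were 5.89-fold, 6.48-fold and 4.03-fold higher in embryonic CMs (limma adjusted p = 0.00012, 6.8e-05 and 0.0002). Kif11 was above background on 1 hypertrophic array, and Foxm1 and Cdk14 on 2. Myc was close to background, with 5.19 and 5.08 in embryonic CMs and no hypertrophic array above it, at least 1.32-fold higher (limma adjusted p = 0.012), and this call was lost in 5 of the 22 alternative settings. Sox4, Thbs1, Runx1 and Dab2 did not pass, with differences of 0.12 ± 0.20, 0.23 ± 0.17, -0.47 ± 0.24 and 1.00 ± 0.53. Median scaling called Dab2 higher in embryonic CMs (1.80) and Runx1 higher in hypertrophic ACMs (-0.57). Runx1 was above background on 2 hypertrophic arrays and on no embryonic or normal array, and Sox4 on no normal array.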

How the data were processed

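RNA of mouse CM preparations was read on the Illumina bead array MouseRef-8 v2.0, 1 sample per array. The authors deposited linear mean bead intensities, neither background-subtracted nor normalized, and with each intensity a detection p-value that GenomeStudio computed against negative-control beads. They also deposited a table of background-subtracted, quantile-normalized intensities, used here as an alternative only. The submitters' processing notes name GenomeStudio 2011, and the series text names version 2.0. The chip of each array, and settings beyond these, are not given in the sources used here. CMs dedifferentiated in vitro were not analysed here.

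Background correction and quantile normalization were run on 8 arrays by neqc of limma 3.58.1 (R 4.3.3), with background read from the detection p-values and an offset of 16. Of 25697 probes, 1719 without a gene symbol were left out, and Entrez identifiers of 23962 were matched to RefSeq with 0 symbols updated. The brightest probe that passed the filter on the 5 embryonic and hypertrophic arrays stood for its gene. Among 2486 genes with several such probes, 10 that passed had another probe that itself passed with the opposite sign. Genes that did not pass, such as Mef2c, and other probes that did not pass are outside this count. Embryonic, normal and hypertrophic groups entered 1 lmFit and eBayes model with 5 residual degrees of freedom, with Benjamini-Hochberg adjustment of p-values over the 9393 genes. The paper's main text states no test for these arrays.

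A gene below background on all arrays of a group was given a bound. It sets the brighter group's mean against the mean, per array, of the higher of the probe's own level and the lowest detected signal. Members and lists were chosen with earlier results of these data known. The rule for named genes took, in each direction, the 10 largest called differences without overlap and the 6 largest bounds. From each list it added the members of smallest p, at most 4, minority directions, isoform pairs, the smallest differences of 5 lists and genes the paper names. Genes outside the rule are marked as named after their values were seen. Tables were made with Python 3.11.15 and pandas 2.3.3, figures with matplotlib 3.10.9, and the fit was tested on simulated data. Alternatives were other background corrections, scalings, filters, probe summaries, variance models and thresholds, a fit of 5 arrays, the replicate number as a block, the authors' normalized intensities and leaving out each array.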

Additional observations from a re-analysis of the deposited data

How the results depend on the processing

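No called gene that the text names was called in the opposite direction under median scaling. In 3 lists the direction with more calls changed. Smooth muscle markers went to 3 higher in embryonic CMs and 2 in hypertrophic ACMs under median scaling. Interferon genes went to 2 and 0 under median scaling and to 1 and 0 without the filter, without hypertrophic replicate 2 or without hypertrophic replicate 3. Leukocyte markers went to 2 and 4 with array weights or without normal replicate 2, to 2 and 5 without normal replicate 1 and to 2 and 7 in both fits of 5 arrays alone. Median scaling gave 4351 genes higher in embryonic CMs and 1022 higher in hypertrophic ACMs, and a required log2 difference over 1 gave 1415 and 1183. Under median scaling the counts higher in embryonic CMs were 23 for cardiac transcription factors, 23 for developmental signalling, 21 for extracellular matrix and 16 for endothelial markers. The counts higher in hypertrophic ACMs were 7 for hypertrophy markers and 12 for antioxidant enzymes. With an adjusted p under 0.01 developmental signalling had 9 genes higher in embryonic CMs. With a log2 difference over 1, the counts higher in hypertrophic ACMs were 15 for fatty acid oxidation, 12 for the respiratory chain and 9 for the TCA cycle. Each of these differences in count follows from the construction of its setting, or its cause was not tested. Leaving out 1 array gave 1709 to 2458 genes higher in embryonic CMs, the fewest without embryonic replicate 1, and 1340 to 2105 higher in hypertrophic ACMs. For lists it gave 7 to 11 hypertrophy markers higher in hypertrophic ACMs (7 without embryonic replicate 1), 9 to 17 developmental signalling genes higher in embryonic CMs (9 without embryonic replicate 2) and 25 to 36 respiratory genes higher in hypertrophic ACMs (25 without embryonic replicate 2).

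Deviations from the group mean correlated at -0.106 and -0.0899 for same-numbered embryonic and hypertrophic arrays. For same-numbered normal and hypertrophic arrays they correlated at 0.131, 0.0434 and -0.0518. Deviations of 2 embryonic arrays mirror each other, so these values cannot decide whether replicate numbers pair the samples. With the replicate block the count of genes higher in embryonic CMs was 2160 and that of genes higher in hypertrophic ACMs was 1778. Of 187 called genes among the 221 named by the rule, 165 kept their call in all 22 alternatives. E2f6, Tap2, Tpm1, Ly6e and Pdk4 lost it in 8 or more. Detection limits what can be said of genes near background. A bound is given only where every array of a group was below background. Where only some arrays were below it, the fold or difference is given as computed. The number of arrays limits the precision.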
